A study of Mus musculus with 12 samples.

Results

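The unfolded protein response genes of the liver were described as a set of 33 genes, taken by symbol from the 25611 genes of a read count table, and each of the 33 was found there once. The set holds 15 chaperones and folding enzymes of the endoplasmic reticulum (ER), 6 genes of ER-associated degradation (ERAD), 6 genes of the ATF4 arm, 5 stress sensors and transcription factors, and Sec61b of the translocon. Whole livers of 12 male mice of strain C57BL6J, 8 to 10 weeks old, were sequenced in 3 groups of 4. Sham mice had the abdomen opened but the cecum left intact, CLP mice underwent cecal ligation and puncture, a model of polymicrobial sepsis, and CLP+DCA mice underwent the same surgery and received dichloroacetate (DCA), an inhibitor of pyruvate dehydrogenase kinases, at 25 mg/kg intraperitoneally. The labels name no genetic change in any group, and all mice received saline under the skin and were killed 30 hr post-surgery. The labels place an injection at 24 hr, so that DCA had acted for 6 hr, and do not name what sham and CLP mice received then. Each mouse gave 1 library, and the unit used below is CPM, read counts scaled to library sizes that TMM had normalized.

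Proteins bound for secretion enter the ER unfolded, and a liver that secretes most plasma proteins depends on chaperones, disulfide isomerases and ERAD to fold them or remove them. When unfolded proteins build up, the membrane sensors ATF6, IRE1 (gene Ern1) and PERK (gene Eif2ak3) signal to the nucleus: cleaved ATF6 and spliced XBP1 raise chaperone and ERAD genes, while PERK phosphorylates eIF2 alpha and so favours translation of ATF4. ATF4 is also reached through other eIF2 kinases that sense amino acid shortage or viral RNA, and its targets include amino acid synthesis genes, Ddit3, Trib3 and Chac1.

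These branches read different short DNA elements, and exact letter matches to these elements are shown here. Whether any match is bound or used in these livers was not tested. The matches shown for Trib3 and Dnajb11 lie after the annotated start. The ER stress response element (ERSE), read by ATF6 and XBP1 with NF-Y, has the letters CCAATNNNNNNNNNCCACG. ERSE-II has ATTGGNCCACG, and the element of ATF4 with C/EBP proteins (CARE) has TGATGNAA. Both strands were searched in RefSeq promoters of GRCm38.p6, from 250 bases before to 50 after each annotated start, which 29 of the 33 genes had. An ERSE was found in 9 of the 29 genes (Hspa5, Hsp90b1, Calr, Canx, Pdia6, Dnajc3, Creld2, Derl3 and Syvn1) and in 37 of 27025 genes in all (0.137%). ERSE-II was found in Herpud1 and Dnajb11 and in 12 genes in all (0.0444%), and CARE in Asns, Chac1, Trib3 and Herpud1 and in 1219 genes in all (4.51%). No matches overlapped in these genes. The ERSE was first defined on promoters of this family, so its share among them is no independent observation. In the sites below, written 5′ to 3′ on the strand of the gene with 5 flanking bases on each side, capitals mark the element, which reads CGTGG to ATTGG where it lies on the opposite strand. The ERSE sites of 4 chaperones and 2 ERAD genes with large and small differences between CLP and sham come first.

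Creld2, chr15:88819515-88819543, gene on the plus strand: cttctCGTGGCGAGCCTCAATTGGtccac
Hspa5, chr2:34772020-34772048, gene on the plus strand: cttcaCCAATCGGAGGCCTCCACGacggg
Calr, chr8:84847070-84847098, gene on the minus strand: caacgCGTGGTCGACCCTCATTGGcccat
Canx, chr11:50325795-50325823, gene on the minus strand: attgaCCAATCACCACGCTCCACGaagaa
Syvn1, chr19:6046527-6046555, gene on the plus strand: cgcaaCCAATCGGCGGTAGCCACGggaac
Derl3, chr10:75893237-75893265, gene on the plus strand: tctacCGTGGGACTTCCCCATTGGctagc

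The ERSE-II sites and the CARE sites follow, in that order. Herpud1, an ERAD gene whose pattern across mice differed from that of the others (below), holds one of each.

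Herpud1, chr8:94386372-94386392, gene on the plus strand: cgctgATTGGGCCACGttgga
Dnajb11, chr16:22857847-22857867, gene on the plus strand: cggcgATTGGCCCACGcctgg
Asns, chr6:7693220-7693237, gene on the minus strand: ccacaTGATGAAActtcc
Chac1, chr2:119351044-119351061, gene on the plus strand: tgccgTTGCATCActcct
Trib3, chr2:152344034-152344051, gene on the minus strand: caggtTTACATCAgccgg
Herpud1, chr8:94386312-94386329, gene on the plus strand: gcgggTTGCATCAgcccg

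For context, the 250 bases before the start of Creld2, the chaperone gene with the largest fitted difference between CLP and sham, and of Herpud1 are given with the same capitals.

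Creld2 upstream stretch, chr15:88819396-88819645, plus strand: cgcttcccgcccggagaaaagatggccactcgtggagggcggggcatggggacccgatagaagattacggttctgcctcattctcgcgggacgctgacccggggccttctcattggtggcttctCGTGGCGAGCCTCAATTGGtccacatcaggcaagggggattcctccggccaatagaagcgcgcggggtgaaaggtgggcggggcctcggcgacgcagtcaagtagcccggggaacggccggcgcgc
Herpud1 upstream stretch, chr8:94386179-94386428, plus strand: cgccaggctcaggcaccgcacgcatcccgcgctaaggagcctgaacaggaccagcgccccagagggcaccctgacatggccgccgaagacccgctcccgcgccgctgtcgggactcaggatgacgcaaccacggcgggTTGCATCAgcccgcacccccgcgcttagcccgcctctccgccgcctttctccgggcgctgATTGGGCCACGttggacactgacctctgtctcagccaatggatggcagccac

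Between 24436513 and 44266819 reads per mouse were counted, and the smallest count of any of the 33 genes in any mouse was 83 (Asns in sham mouse 3). All 33 genes passed the low-count filter, among 13190 genes tested. CLP+DCA mouse 3 stood apart. The median Pearson correlation of its log2 CPM with the other mice of its group was 0.926, against 0.986 to 0.990 for the other CLP+DCA mice. With the CLP mice its median correlation was 0.960, against 0.964 to 0.967 for the other CLP+DCA mice and 0.962 to 0.980 for CLP mice with each other. With the sham mice it was 0.909, against 0.983 to 0.988. Since all mice share a single estimate of the spread, this mouse also enters comparisons it does not belong to, and results are given with and without it. Whole liver was sequenced, so a lower level may come from fewer cells of a type or from less RNA per cell, which cannot be told apart here. Hepatocyte markers (10 of 10 at 1 CPM or more in every group) summed to 71220 to 90640 CPM in sham, 37550 to 54330 in CLP and 33220 to 66210 in CLP+DCA, lowest in CLP+DCA mouse 3. Alb, the albumin gene, had the highest level on this list, with a mean of 46670 CPM in sham and 21570 in CLP. It fell by 1.11 on the log2 scale in CLP (adjusted p = 0.0463, edgeR). Of the 10 markers, 2 were lower in CLP at an unadjusted p under 0.05 by edgeR (13.1% of all genes). Fitted values were below 0 for 8 and above 0 for 2, Apob (0.26) and Hnf4a (0.05).

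Chaperone genes were higher in the livers of 3 of 4 CLP mice than in sham livers, and by edgeR on all 12 mice the difference did not pass the FDR of 0.05 for any of them, while DESeq2 on all 12 mice called 7 of 15 and edgeR without CLP+DCA mouse 3 called 9. The median log2 fold change of the 15 chaperones was 0.79, against 0.02 over all genes tested, and all 15 values were above 0. By edgeR's quasi-likelihood test on all 12 mice, 0 of the 33 genes passed the FDR in CLP versus sham, where 2.78% of all genes did. Of the 33, 14 had an unadjusted p under 0.05, all higher in CLP (15.5% of all genes were higher at that level), among them 9 chaperones, 3 ERAD genes, Asns and Creb3l3. With DESeq2, 9 of the 33 passed in a fit of all mice (5.6% of all genes higher) and 16 in a fit of the 8 mice compared (9.53%), and limma voom with sample quality weights called 13 (13%), all higher in CLP. edgeR fitted to these 8 mice called 6 (9.26%), and DESeq2 without CLP+DCA mouse 3, a fit added after seeing the data, called 20 (10.5%). In edgeR without CLP+DCA mouse 3, which is no part of this comparison, the fold changes hardly moved, the standard errors of all genes of the set but Ern1 were smaller, and 14 of the 33 passed (12.2% of all genes higher).

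Creld2 (NCBI Gene 76737, chr15:88819646-88826681), an ER protein with disulfide isomerase activity, had the largest fitted difference among the chaperones. It was measured at 47.3, 38.3, 54.5 and 32.4 CPM in sham mice 1 to 4, 93.4, 287, 53.9 and 190.2 in CLP mice 1 to 4 and 54.3, 100.3, 198 and 45 in CLP+DCA mice 1 to 4. CLP mice 2 and 4 and CLP+DCA mouse 3 were farthest above sham, CLP mouse 3 lay within the sham range, and the groups overlapped. The log2 fold change in CLP versus sham was 1.86 (standard error, SE, 0.55, adjusted p = 0.0739 by edgeR with all mice and 0.0245 without CLP+DCA mouse 3).

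Dnajb9 (NCBI Gene 27362, chr12:44205897-44210068), a J-domain cochaperone that holds IRE1 inactive together with the chaperone BiP, separated the groups better. The sham mice had 69.7, 54.9, 63.8 and 54.7 CPM, the CLP mice 91.9, 201, 96.7 and 172 and the CLP+DCA mice 85.7, 94.7, 190.2 and 83.1. Every CLP mouse and every CLP+DCA mouse was above every sham mouse. In CLP versus sham the log2 fold change was 1.21 (SE 0.31, adjusted p = 0.0585 by edgeR), and the adjusted p was 0.00712 without CLP+DCA mouse 3. Dnajb9 was 1 of only 3 genes of the 33, with Derl1 and Atf4, whose CLP values did not overlap those of sham, where 12.2% of all genes lay wholly above sham.

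Pdia4 (NCBI Gene 12304, chr6:47796141-47813512), a disulfide isomerase, was measured at 299, 267, 298 and 257 CPM in sham, 470.4, 747, 277 and 691 in CLP and 263, 319.6, 526 and 261 in CLP+DCA. CLP mouse 3 was again among the sham values, and so were CLP+DCA mice 1 and 4. The fitted difference between CLP and sham was 0.96 on the log2 scale (SE 0.30, adjusted p = 0.0799, edgeR). Hspa5 (NCBI Gene 14828, chr2:34772090-34776529), which encodes BiP, the main ER Hsp70 chaperone, is given as the best known gene of the set, chosen after its values were seen. It took 918, 735, 906 and 802 CPM in sham, 1369, 2388, 803 and 1952 in CLP and 923, 1098, 1924 and 886 in CLP+DCA. CLP mice 1, 2 and 4 and CLP+DCA mice 2 and 3 were clearly above sham and CLP mouse 3 was within the sham range, with a log2 fold change of 0.95 in CLP (SE 0.33, adjusted p = 0.0938, edgeR).

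Among the other chaperones, the fitted log2 differences between CLP and sham ran from 1.48 to 0.06. Sdf2l1 (1.48), which works with ER J-domain proteins, Manf (1.36), a secreted protein that binds BiP, and Hyou1 (1.22), an exchange factor of BiP, had values above 1. Dnajb11 (0.79) and Dnajc3 (0.53), J-domain partners of BiP, and the Hsp90 chaperone Hsp90b1 (0.64) lay between 0.5 and 1. So did the disulfide isomerase Pdia6 (0.54) and calreticulin, Calr (0.53), a lectin of the glycoprotein folding cycle. The disulfide isomerase Pdia3, which pairs with the lectins, had 0.43 and Pdia5 0.12. Calnexin, Canx, the membrane-bound lectin, whose promoter holds an ERSE, had 0.06 (SE 0.10). With library size alone in place of TMM, Pdia5 and Canx were below 0 (-0.06 and -0.12).

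Levels per length differed widely among these genes. In sham, Calr had 513 CPM per kb of exon, Hsp90b1 331, Pdia3 231 and Hspa5 224, while the 4 chaperones at the lowest levels were Hyou1 with 41.6 CPM per kb, Manf with 38.0, Creld2 with 31.6 and Dnajb9 with 24.7. In CLP, Creld2 reached 114 CPM per kb and Hspa5 434.

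**Figure D1:**
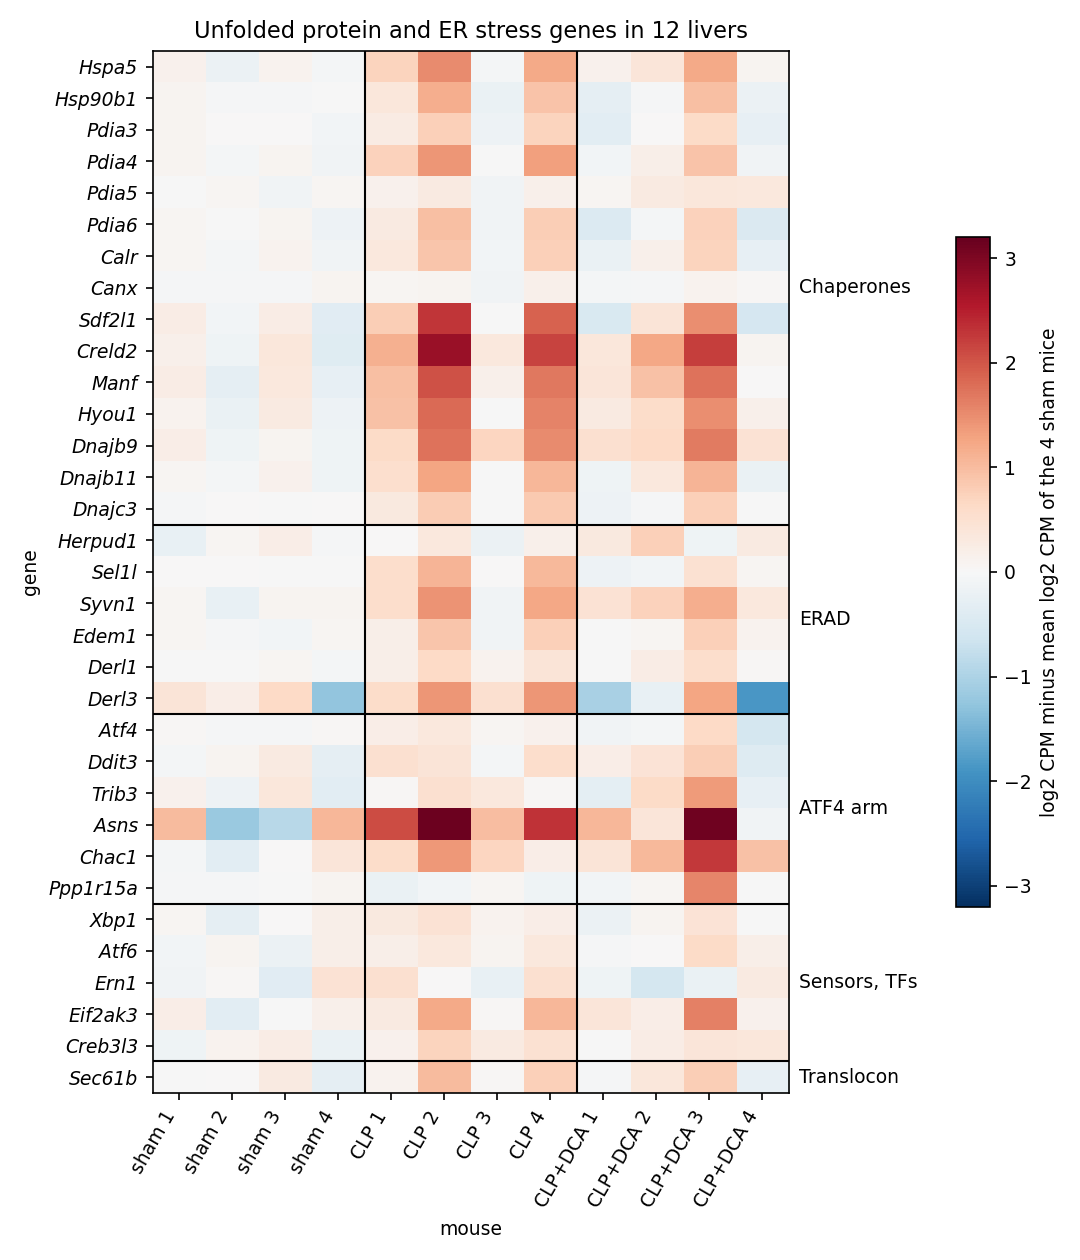
Heat map of the 33 genes (rows, in their 5 groups) in the 12 mice (columns). Colour is the log2 CPM of a mouse less the mean log2 CPM of the 4 sham mice, red for higher and blue for lower. CLP mice 2 and 4 and CLP+DCA mouse 3 are red over most chaperone and ERAD rows, CLP mouse 3 is close to sham, and Ppp1r15a is red in CLP+DCA mouse 3 alone.

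The ERAD genes, which bring misfolded proteins back to the cytosol for degradation, followed the chaperones at a smaller size. Their median log2 fold change in CLP versus sham was 0.61, all 6 values were above 0, and 3 were higher at an unadjusted p under 0.05 (15.5% of all genes). Sel1l and Syvn1 form the membrane complex that ubiquitinates ERAD substrates, with Syvn1 (HRD1) as the ligase, and derlins such as Derl1 take part in pulling substrates out.

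Sel1l (NCBI Gene 20338, chr12:91806043-91849157) had 199, 200.2, 194 and 194 CPM in sham, 289, 416, 198 and 402 in CLP and 175, 186, 276 and 204 in CLP+DCA. The sham values were nearly alike, CLP mice 1, 2 and 4 were above them and CLP mouse 3 was not. Its log2 fold change in CLP was 0.73 (SE 0.22, adjusted p = 0.0754 by edgeR and 0.0207 without CLP+DCA mouse 3).

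Syvn1 (NCBI Gene 74126, chr19:6046576-6053718) was measured at 101, 82.4, 102 and 102 CPM in sham, 142, 262, 89.5 and 227 in CLP and 133, 162, 216 and 121 in CLP+DCA. CLP mouse 3 fell among the sham mice, whereas every CLP+DCA mouse was above every sham mouse. The fitted values were 0.90 for CLP (SE 0.29, adjusted p = 0.0868) and 0.71 for CLP+DCA (SE 0.29, adjusted p = 0.346), both against sham by edgeR. Derl1 (NCBI Gene 67819, chr15:57869502-57892418) separated the groups by a smaller difference, with 148, 148, 157 and 143 CPM in sham, 170.4, 230.1, 161 and 199 in CLP and 148, 175, 219.8 and 152 in CLP+DCA. All CLP values were above all sham values, and the log2 fold change was 0.35 (SE 0.15, adjusted p = 0.145, edgeR).

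Edem1, a lectin that directs glycoproteins to ERAD, had a log2 fold change of 0.49 in CLP. A pair of ERAD genes, chosen after their values were seen, departed from this pattern. Derl3 (NCBI Gene 70377, chr10:75893398-75895941), a derlin abundant in secretory cells, had 26.4, 23.0, 30.7 and 8.23 CPM in sham, 29.6, 53.1, 28.5 and 52.9 in CLP and 9.58, 16.8, 47.4 and 5.38 in CLP+DCA. Sham mouse 4 and CLP+DCA mice 1, 2 and 4 were below the other 3 sham mice, and the fitted difference of 0.89 in CLP came with an SE of 0.59.

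Herpud1 (NCBI Gene 64209, chr8:94386429-94395371), which anchors ERAD complexes in the membrane and is a target of both the ATF6 and the ATF4 branch, had 327, 399, 441 and 372 CPM in sham, 387, 486, 334 and 428 in CLP and 476, 654, 345 and 463 in CLP+DCA. CLP+DCA mice 1, 2 and 4 held 3 of the 4 highest values, and CLP+DCA mouse 3, highest in its group for 31 of the 33 genes, had the lowest value of its group. The log2 fold change was 0.09 in CLP versus sham (SE 0.19) and 0.33 in CLP+DCA versus sham (SE 0.19, adjusted p = 0.455, edgeR). Without CLP+DCA mouse 3, the other 3 lay above every sham mouse, as 6.8% of all genes did, at 0.46 (SE 0.17, adjusted p = 0.417).

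The ATF4 arm differed less between CLP and sham than the chaperones did, with a median log2 fold change of 0.29, and its genes differed from each other. Atf4, the transcription factor itself, shown in every mouse after its values were seen, had 97.6, 93.5, 93.1 and 97.5 CPM in sham and 110.5, 121, 100.3 and 105 in CLP, which did not overlap. The difference of 0.19 on the log2 scale had an SE of 0.20 with all mice and 0.11 without CLP+DCA mouse 3 (adjusted p = 0.515 and 0.197, edgeR). ATF4 is controlled mainly by translation, which read counts do not measure.

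Asns (NCBI Gene 27053, chr6:7675171-7693182), asparagine synthetase, had the largest fitted difference of all 33 genes. Its levels were 9.93, 2.13, 2.63 and 10.4 CPM in sham, 21.1, 44, 9.79 and 24.8 in CLP and 10.2, 6.42, 43.3 and 4.55 in CLP+DCA. The sham mice fell into a pair near 10 CPM and a pair under 3 CPM, and CLP mouse 3 was level with the upper pair. The log2 fold change of 1.99 in CLP had an SE of 0.78 (adjusted p = 0.127 by edgeR and 0.0431 without CLP+DCA mouse 3).

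Chac1 (NCBI Gene 69065, chr2:119351242-119354327), which degrades glutathione, was measured at 5.69, 4.73, 5.95 and 7.82 CPM in sham, 8.99, 15.6, 9.67 and 6.87 in CLP and 7.92, 12.3, 28.6 and 11.5 in CLP+DCA. Like Dnajb9 and Syvn1 it was above sham in all 4 CLP+DCA mice, and CLP mouse 4, high for the chaperones, was within the sham range. Its log2 fold change was 0.76 in CLP (SE 0.37, adjusted p = 0.199) and 1.32 in CLP+DCA (SE 0.37, adjusted p = 0.259), both against sham by edgeR.

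Ddit3 (NCBI Gene 13198, chr10:127290793-127296288), the transcription factor CHOP, had few reads, with 6.18, 6.81, 7.82 and 5.25 CPM in sham, 9.15, 8.57, 6.19 and 9.52 in CLP and 7.47, 8.70, 11.3 and 4.80 in CLP+DCA. The 3 groups overlapped, and the log2 fold change was 0.36 in CLP (SE 0.23, adjusted p = 0.315, edgeR). Trib3, a pseudokinase induced by CHOP and ATF4, had 0.22 (SE 0.33).

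Ppp1r15a (NCBI Gene 17872, chr7:45522917-45526268), which encodes GADD34, the stress-induced subunit of the phosphatase that reverses eIF2 alpha phosphorylation, was the only gene of the 33 with a negative fitted value in CLP versus sham (with library size alone, Canx, Pdia5 and Herpud1 were negative as well, and Herpud1 was without CLP mouse 2). It was singled out after its values were seen: 10.3, 10.3, 10.5 and 11.2 CPM in sham, 9.12, 9.96, 11 and 9.61 in CLP and 9.96, 11.1, 31.5 and 10.4 in CLP+DCA. In 11 mice it lay between 9.12 and 11.2 CPM, and CLP+DCA mouse 3 was far above them. The log2 fold change in CLP was -0.09, with an SE of 0.32 with all mice and 0.08 without that mouse.

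Sensors and their transcription factors had a median log2 fold change of 0.27 in CLP, with values from 0.21 (Ern1) to 0.72 (Eif2ak3). Creb3l3 (NCBI Gene 208677, chr10:81084333-81098872), a membrane-bound factor of hepatocytes (CREBH) that is cut like ATF6, had 275, 328, 354 and 258 CPM in sham, 330.2, 490.4, 369 and 419 in CLP and 298, 356, 396 and 390.4 in CLP+DCA. CLP mice 2, 3 and 4 were above all sham mice, and the fitted value was 0.40 (SE 0.16, adjusted p = 0.125, edgeR). Eif2ak3 (NCBI Gene 13666, chr6:70844515-70905241), the sensor kinase PERK, had 22.4, 15.3, 19.2 and 21.9 CPM in sham, 23.9, 44.9, 20.1 and 40.8 in CLP and 25.3, 22.8, 59.7 and 21.3 in CLP+DCA.

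Eif2ak3 was highest in CLP mice 2 and 4 and CLP+DCA mouse 3 and closer to sham in the others, with a log2 fold change of 0.72 in CLP (SE 0.35, adjusted p = 0.201, edgeR). DESeq2 on the 8 mice compared called Eif2ak3 (adjusted p = 0.0375, 9.53% of all genes higher). DESeq2 without CLP+DCA mouse 3 called Eif2ak3 and Creb3l3 (adjusted p = 0.0175 and 0.0406, 10.5% higher). Xbp1 (NCBI Gene 22433, chr11:5520641-5525993) was measured at 348, 273, 335 and 375 CPM in sham, 413, 453, 358 and 386 in CLP and 288, 350.3, 448 and 325 in CLP+DCA. The groups overlapped, with a log2 fold change of 0.27 in CLP (SE 0.15, adjusted p = 0.251). Gene counts do not separate spliced from unspliced Xbp1 RNA, so the splicing that activates it was not measured. Atf6 had 0.24 and Ern1 0.21 (SE 0.14 and 0.23). Sec61b, a subunit of the channel through which proteins enter the ER, had 0.53 (SE 0.26, adjusted p = 0.202).

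**Figure D2:**
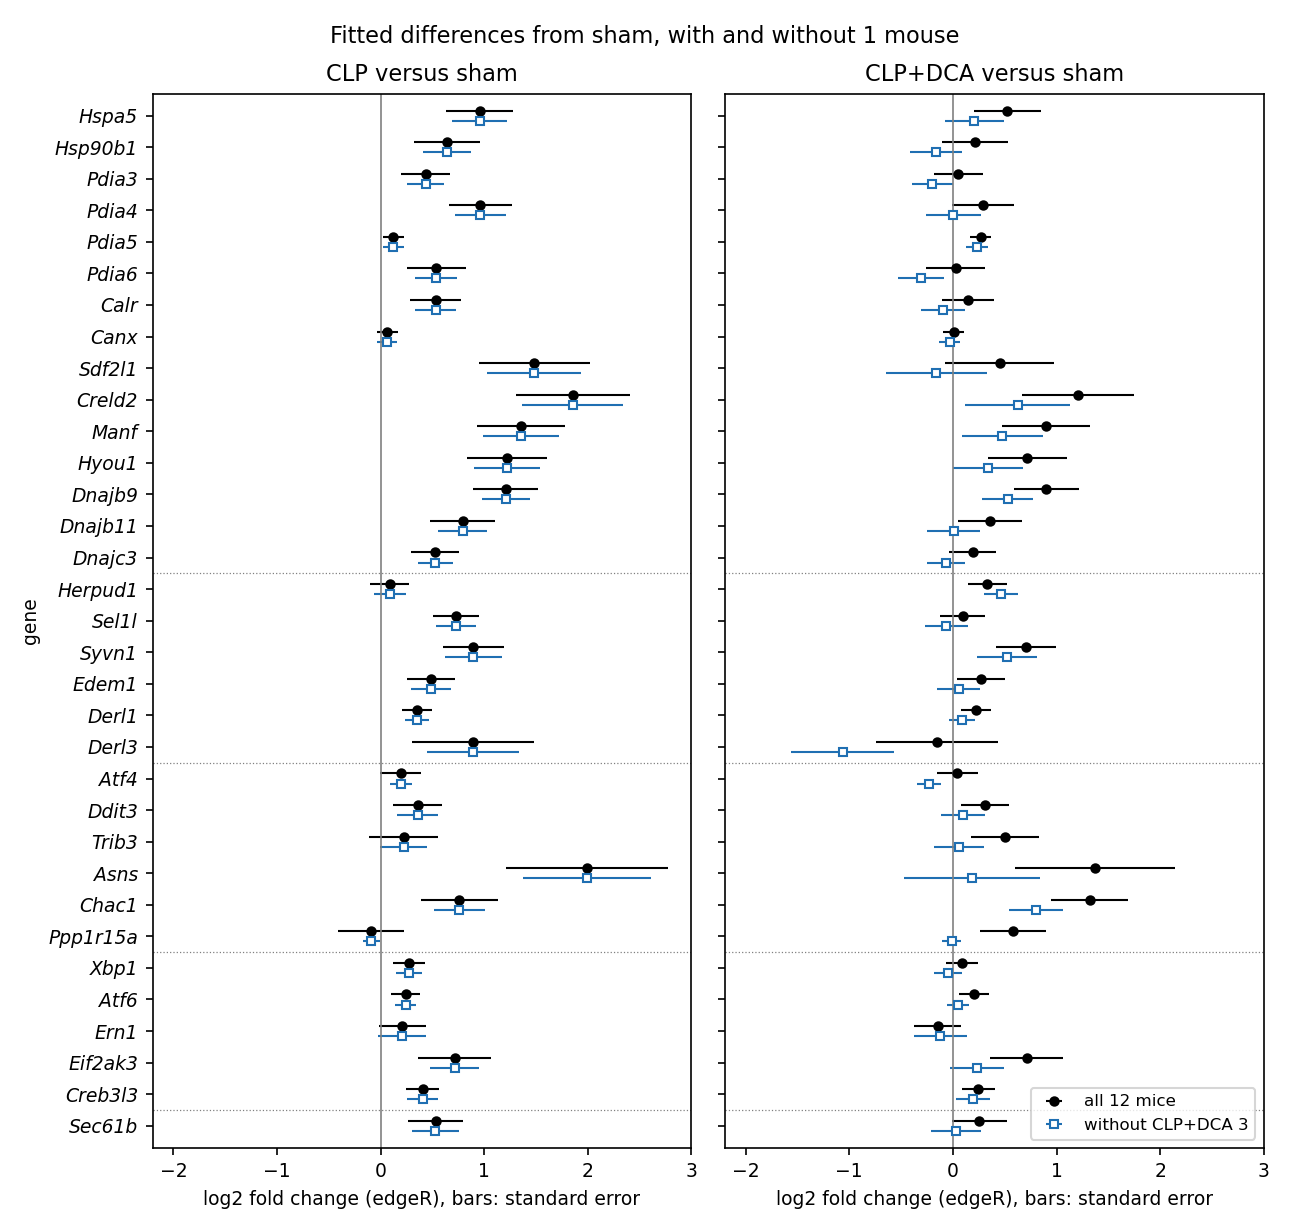
Fitted log2 fold changes of the 33 genes against sham (horizontal axis, edgeR) for CLP (left) and CLP+DCA (right), with bars of 1 standard error. Filled circles are from all 12 mice and open squares without CLP+DCA mouse 3. In CLP the 2 fits lie on the same values with shorter bars for the squares except for Ern1, and in CLP+DCA the squares lie nearer to 0 for most genes.

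The spread within the CLP group was as large as the difference between groups. The median log2 difference of the 15 chaperones from the sham mean was 0.53 in CLP mouse 1, 1.27 in mouse 2, -0.02 in mouse 3 and 1.06 in mouse 4. CLP mouse 2 had the highest value of its group for 27 of the 33 genes, and CLP mouse 3 the lowest for 28. Chaperones above all 4 sham mice numbered 14 of 15 in CLP mouse 1, 15 in mice 2 and 4, and 1 in mouse 3, against 29.0%, 37.2%, 34.6% and 27.5% of all genes in CLP mice 1, 2, 4 and 3. Leaving out CLP mouse 3 raised the chaperone median to 0.98, and 8 of the 33 genes then passed the FDR (4.2% of all genes higher). Whether CLP mouse 3 was less ill is not given by the labels.

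The reads of acute phase genes were ordered like the chaperones in the CLP mice. A list of 28 such genes, most of them for secreted proteins, held between 10.1 and 11.6% of all counted reads in the sham mice, and 22.7, 33.9, 19.4 and 31.2% in CLP mice 1 to 4, with 33.5% in CLP+DCA mouse 3. The 33 unfolded protein genes held between 0.762 and 0.862% in the sham mice and 0.993, 1.35, 0.775 and 1.21% in CLP mice 1 to 4. In sham mice 1 to 4 the order was reversed, with 10.8, 11.3, 10.1 and 11.6% against 0.841, 0.792, 0.862 and 0.762%. In CLP+DCA mice 1 to 4 the order was shared, with 15.2, 18.5, 33.5 and 13.7% against 0.7875, 0.9085, 1.244 and 0.7649%. Neutrophil markers did not share the order of the acute phase reads in the CLP mice. They summed to 6.11 to 9.04 CPM in sham and to 28.6, 42.6, 32.9 and 30.5 CPM in CLP mice 1 to 4, with 5 of 10 at 1 CPM or more in CLP, 3 in sham, where Camp had no read, and of the 8 tested 6 were higher (15.5% of all genes) and Ly6g was lower (-0.78, 13.1% of all genes lower) at an unadjusted p under 0.05. Plasma cells and pancreatic acinar cells are rich in ER chaperones. The plasma cell list (9 genes, of which Fkbp11, Txndc5 and Sdc1 made up the sum and Tnfrsf17 had no read) summed to 534 to 607 CPM in sham, 482 to 744 in CLP and 547 to 710 in CLP+DCA, with the highest sums in CLP mouse 2 and CLP+DCA mouse 3. Of the 5 genes tested, 2 had positive and 3 negative fitted values in CLP versus sham. Only Fkbp11 was higher at an unadjusted p under 0.05 by edgeR (15.5% of all genes). Mean levels in sham, CLP and CLP+DCA were 10.3, 40.0 and 23.4 CPM for Fkbp11 and 0.533, 0.265 and 0.670 for Jchain. Fkbp11 and Txndc5 are also counted among the further folding factors below. The acinar list (20 genes, 1 at 1 CPM or more and 11 with no read in sham) summed to 7.96 to 13.5 CPM in sham and 7.28 to 12.8 in CLP. The part of the hepatocyte, neutrophil and plasma cell lists in these results was not tested.

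**Figure D3:**
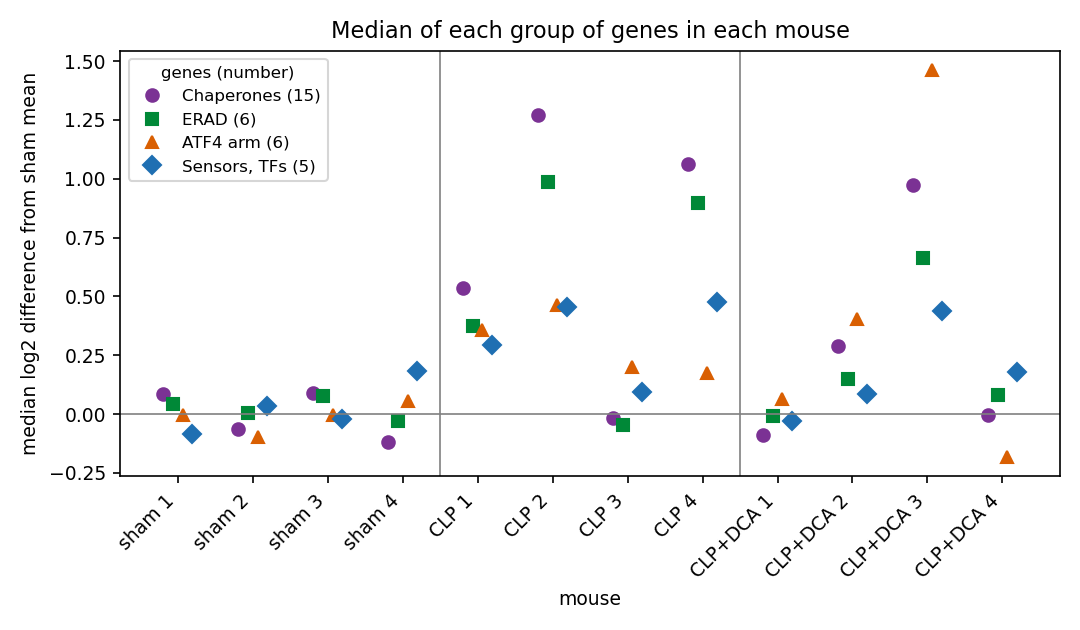
Median log2 difference from the sham mean (vertical axis) of the chaperones, ERAD genes, ATF4 arm, and sensors with transcription factors in each of the 12 mice (horizontal axis). In CLP mice 2 and 4 the chaperones are highest and the ATF4 arm lies well below them, in CLP+DCA mouse 3 the ATF4 arm is highest, and CLP mouse 3 and CLP+DCA mice 1 and 4 are near 0.

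In CLP+DCA mice, the chaperones and ERAD genes lay between sham and CLP by their medians, the ATF4 arm had a higher median than in CLP, and the 4 livers differed widely. The median log2 difference of the chaperones from sham was -0.09, 0.29, 0.97 and -0.00 in CLP+DCA mice 1 to 4. For the ERAD genes it was -0.01, 0.15, 0.66 and 0.08, and for the ATF4 arm 0.06, 0.41, 1.46 and -0.18. Chaperones above all 4 sham mice numbered 4, 10, 15 and 2 of 15 in CLP+DCA mice 1 to 4 (23.7%, 28.0%, 39.8% and 23.2% of all genes), and 8, 2, 0 and 6 were below all 4 sham mice (23.5%, 27.5%, 38.0% and 22.4%). In CLP+DCA mouse 3 the ATF4 arm stood further from sham than in any other mouse. That mouse had the group's highest value for all 15 chaperones and all 6 genes of the ATF4 arm.

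In CLP+DCA versus sham, edgeR called 0 of the 33 genes, where 0.0379% of all genes were called, and 5 had an unadjusted p under 0.05 (Chac1, Dnajb9, Pdia5, Syvn1 and Creld2, all higher, as were 8.14% of all genes). DESeq2 called Chac1 on all 12 mice, and Chac1 with Syvn1 on the 8 mice compared, while voom with sample quality weights called none of the 33 and 3.59% of all genes. DESeq2 called 0.896% and 0.573% of all genes higher in these fits. Dnajb9, Syvn1 and Chac1 were above every sham mouse in all 4 CLP+DCA mice, where 4.78% of all genes were. The median log2 fold changes were 0.29 for chaperones, 0.24 for ERAD genes and 0.54 for the ATF4 arm. Without CLP+DCA mouse 3 they were 0.00, 0.07 and 0.08, with 0 of the 33 called (0.0828% of all genes were) and 2, Herpud1 and Chac1, higher at an unadjusted p under 0.05 (5.31%). Chac1 then had 0.81 (SE 0.26, adjusted p = 0.382), Dnajb9 0.53 and Syvn1 0.52, and in the 3 other CLP+DCA mice these genes were above every sham mouse. The DESeq2 calls of Chac1 and Syvn1 were lost without that mouse (adjusted p = 0.155 and 0.599, 0 of the 33 called, 0.844% of all genes called).

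The direct comparison of CLP+DCA with CLP asks what DCA changed in septic livers, and it shares its mice with both comparisons above. By edgeR 0 of the 33 genes passed the FDR, as 0.00758% of all genes did, and only Sel1l and Pdia4 had an unadjusted p under 0.05, both lower in CLP+DCA (4.94% of all genes were). No gene of the set lay wholly below CLP, as 2.05% of all genes did. DESeq2 called none of the 33 either, whether fitted to all mice (0.74% of all genes called) or to the 8 mice (0.439%). The fitted value was below 0 for 28 of the 33, with medians of -0.43 for chaperones and -0.20 for ERAD genes, and 0.12 for the ATF4 arm. Sel1l had a log2 fold change of -0.64 (SE 0.22, adjusted p = 0.400) and Pdia4 of -0.67 (SE 0.30, adjusted p = 0.497).

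Without CLP+DCA mouse 3 the medians of CLP+DCA versus CLP were -0.78, -0.40 and -0.21, and 17 of the 33 genes, 12 of them chaperones, were lower at an unadjusted p under 0.05 (14.5% of all genes), while Herpud1 was higher. edgeR still called 0 of the 33 (4.64% of all genes were called), whereas DESeq2 without this mouse called 11 of the 33 (5.41% of all genes lower) and voom with sample quality weights, which gave this mouse a weight of 0.125, called 10 (5.11%). Called by both were Hsp90b1, Pdia3, Pdia4, Pdia6, Calr, Sdf2l1, Dnajb11, Dnajc3, Sel1l and Derl3, and DESeq2 also called Atf4. In these 3 CLP+DCA mice, Derl3 was below every CLP mouse, with a log2 fold change of -1.95 (SE 0.51, adjusted p = 0.0566, edgeR). Atf4 (88.4, 90.6, 149 and 64.9 CPM in CLP+DCA mice 1 to 4) and Xbp1 were below every CLP mouse as well (10.4% of all genes were), at -0.43 and -0.33. The 30 other genes of the set overlapped between the groups.

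**Figure D4:**
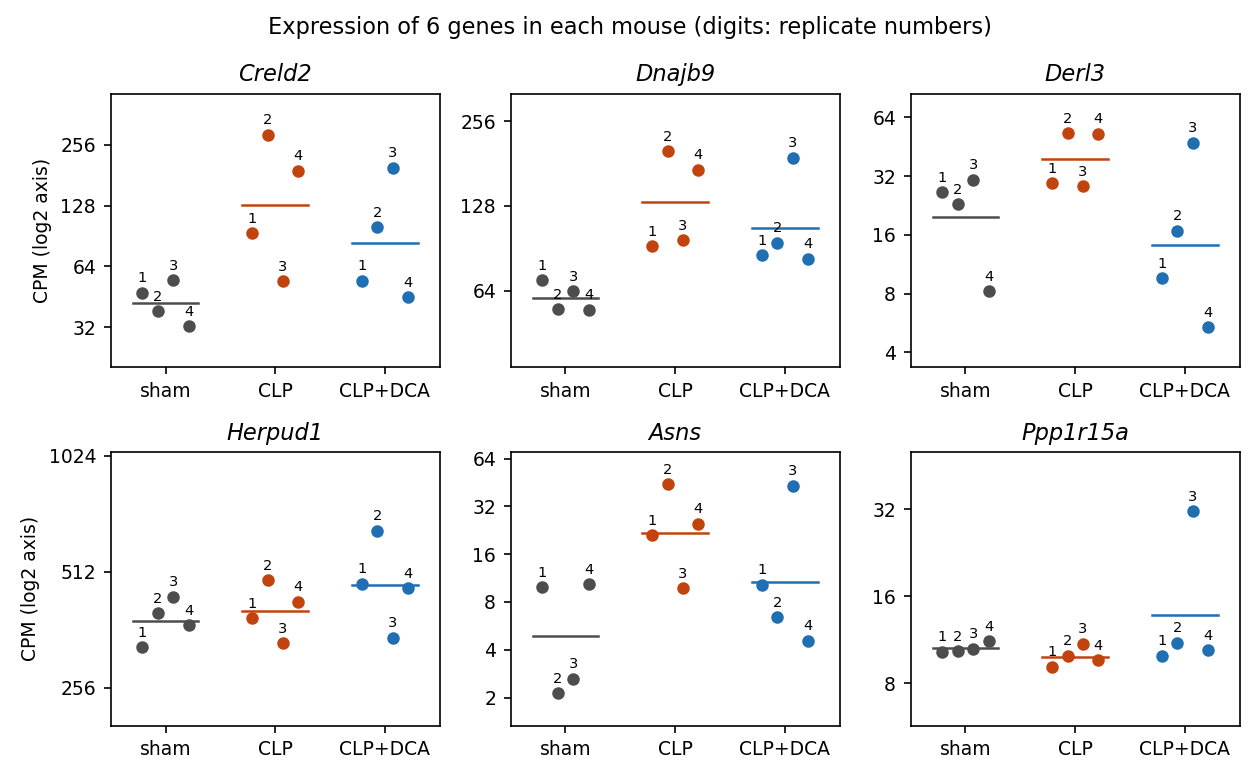
CPM (vertical axes, log2 scale) of 6 genes in the 12 mice, by group (horizontal axes). Points are mice with their replicate numbers and lines are means of log2 CPM over the 4 mice. Creld2, Dnajb9, Derl3 and Asns are high in CLP mice 2 and 4 and in CLP+DCA mouse 3, Ppp1r15a is high in CLP+DCA mouse 3 alone, and Herpud1 is lowest of its group in that mouse.

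Genes with and without an exact ERSE match in the promoter stretch searched covered nearly the same range of fold changes. Inexact or more distant elements were not searched for. In CLP versus sham the 9 genes with an ERSE lay between 0.06 (Canx) and 1.86 (Creld2) with a median of 0.64, and the 20 others with a promoter sequence between -0.09 and 1.99 with a median of 0.46. The 4 genes with a CARE had a median of 0.49 in CLP versus sham and 0.91 in CLP+DCA versus sham. These values describe the genes and were not tested.

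Wider lists of the same pathways, written from general knowledge and holding none of the 33 genes apart from Dnajc3 in one of them, were counted in the same way. In CLP versus sham edgeR on all mice called 2.78% of all genes, and at an unadjusted p under 0.05 15.5% were higher and 13.1% lower, which is the background of the counts that follow. Of 31 further folding factors tested, edgeR called 0, and 18 had an unadjusted p under 0.05, all higher. The smallest p belonged to Dnajc1, a J-domain protein (log2 fold change 0.46, adjusted p = 0.0585). Of 30 genes of the translocon, signal peptidase and oligosaccharyltransferase, edgeR called 0 and 18 had an unadjusted p under 0.05, all higher, led by Ostc of the oligosaccharyltransferase (0.84, adjusted p = 0.0673). Without CLP+DCA mouse 3, edgeR called 14 of each list, all higher (12.2% of all genes higher and 11.5% lower), and DESeq2 on all 12 mice called 9 folding factors and 6 genes of the translocon list, all higher (5.6% higher and 4.69% lower). The filter of DESeq2 left slightly other numbers of genes in some of these lists. For 23 genes of transport from ER to Golgi, 0 were called and 9 had an unadjusted p under 0.05, all higher, led by the COPII coat gene Sec23b (0.80, adjusted p = 0.0662), with 7 called without that mouse and 6 by DESeq2 on all 12 mice. Median log2 fold changes in CLP versus sham were 0.46 for folding factors, 0.54 for the translocon list and 0.31 for transport to the Golgi. In CLP+DCA versus sham they were 0.21, 0.31 and 0.26, with 0 called in each, and 0.09, 0.08 and 0.13 without CLP+DCA mouse 3.

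Further ERAD genes and ATF4 targets differed in both directions, against the same background. Of 27 ERAD genes tested, 7 were higher and 1 was lower at an unadjusted p under 0.05 in CLP versus sham (15.5% and 13.1% of all genes), with a median of 0.15 and 0 called by edgeR. Ube2g2, an ERAD ubiquitin-conjugating enzyme, had the smallest p (0.74, adjusted p = 0.0734). Without CLP+DCA mouse 3, 6 were called higher and 3 lower (12.2% and 11.5% of all genes). DESeq2 on all 12 mice called 3 higher (5.6% of all genes). Of 37 further ATF4 targets, 5 were higher and 3 lower at an unadjusted p under 0.05, shares that are no larger than those of all genes, 0 were called, and the median was 0.20. Gdf15, a stress-induced cytokine, had the smallest p and a negative value (-1.72, adjusted p = 0.0686). Without that mouse 8 were called higher and 3 lower (12.2% and 11.5% of all genes). DESeq2 on all 12 mice called 5 higher and 2 lower (5.6% and 4.69% of all genes). In both of these fits the share called higher was larger than that of all genes. For 13 genes of eIF2 control, the list that includes Dnajc3 as an inhibitor of PERK, 1 was higher and 2 were lower at that level. The higher gene was Dnajc3 itself, already counted among the chaperones. The smallest p belonged to Eif2b5 of the eIF2B exchange factor (-0.21, adjusted p = 0.114). On all 12 mice edgeR called 0 and DESeq2 called 0. Without that mouse edgeR called 1 higher, again Dnajc3, and 1 lower (12.2% and 11.5% of all genes). In CLP+DCA mouse 3 the 37 ATF4 targets had a median log2 difference from sham of 0.76, against 0.00 to 0.05 in the other CLP+DCA mice and 0.09 to 0.31 in the CLP mice.

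The acute phase genes, most of which encode secreted proteins while Mt1, Mt2 and Steap4 do not, had larger differences. Of these 28 genes, 15 passed the FDR (2.78% of all genes) and 26 had an unadjusted p under 0.05 (15.5% higher) in CLP versus sham, all higher, with a median log2 fold change of 1.67. Saa3 (8.75, adjusted p = 0.00150), Orm2 (2.36), Apcs (2.59) and Orm1 (2.02) had the smallest p, and reads of the near-identical Saa and Orm genes may have been split between copies. Apcs, serum amyloid P component, was also the single gene past the FDR among 6 reported targets of CREBH (adjusted p = 0.0202, edgeR).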

How the data were processed

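RNA of whole liver from 12 mice was sequenced, 1 library per mouse and 4 mice per group. Per the labels, reads were aligned to mm10 with STAR 2.5 and assigned to genes with featureCounts of Subread 1.5.0-p1. The annotation and the strand setting are not given in the sources used here. The authors deposited raw counts for 25611 genes, of which 6769 had no read in any mouse.

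Counts were analysed in R 4.3.3 with edgeR 4.0.16. Genes kept by filterByExpr with a minimum count of 10 (13190) were scaled by TMM, all 12 mice entered a single fit, and each pair of groups was compared by the robust quasi-likelihood test with Benjamini-Hochberg adjustment over all genes tested, with an FDR of 0.05. Log2 CPM used a prior count of 2. The p-values measure the spread between these mice, and counting error is small beside it at this depth. The fitting code was tested on simulated data with known fold changes.

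The 33 genes and all further lists were chosen with earlier results of these data known. Values in every mouse were planned for the 3 genes with the smallest p in CLP versus sham in each group of genes, and from wider lists up to 4 genes past the FDR or the gene with the smallest p. Genes given beyond this rule are marked as such. For the lists, 4 symbols were matched by synonym. Gene positions are the mm10 coordinates deposited with the counts. Promoters were taken from RefSeq, GRCm38.p6, and exon lengths from GENCODE. Alternatives were DESeq2 1.42.0, limma 3.58.1 voom with sample quality weights, fits of the 8 mice compared, other scalings and filters, the replicate number as a block, other FDR thresholds and each mouse left out. DESeq2 without CLP+DCA mouse 3 was added after seeing the data. Figures were drawn with Python 3.11.15.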

Additional observations from a re-analysis of the deposited data

Results flagged for a closer look

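Each gene was screened in each group of 4 mice for a value far from the other 3, which made 99 groups, by the share of the range of the group that the gap takes (Dixon's test, 95% limit). About 1 in 20 groups would pass by chance, and 10 values did. CLP+DCA mouse 3 held 7 of them, each the highest of its group. They were the chaperone genes Hsp90b1 at 1835 CPM, Dnajb9 at 190.2 CPM and Dnajc3 at 639.6 CPM, the ERAD gene Edem1 at 415 CPM, the ATF4 arm genes Asns at 43.3 CPM and Ppp1r15a at 31.5 CPM, and the sensor gene Eif2ak3 at 59.7 CPM. The other 3 values were in sham mice: Hsp90b1 was highest in sham mouse 1 at 991 CPM, Canx highest in sham mouse 4 at 416 CPM, and Syvn1 lowest in sham mouse 2 at 82.4 CPM. Genes of one mouse share its liver and its library, so the 7 values are not independent of each other.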

How the results depend on the processing

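The number of the 33 genes past the FDR in CLP versus sham was 0 by edgeR on all mice. It was 6 by edgeR on the 8 mice compared (9.26% of all genes higher) and 13 by voom with sample quality weights (13%). DESeq2 called 9 on all 12 mice (5.6%), 16 on the 8 mice (9.53%) and 20 without CLP+DCA mouse 3 (10.5%). At an FDR of 0.1 edgeR on all mice called 8, and the share of all genes at that threshold was not counted. All these genes were higher in CLP. Leaving out each mouse in turn gave 0 to 14, with 14 without CLP+DCA mouse 3 (12.2%) and 8 without CLP mouse 3 (4.2%). In CLP+DCA versus sham DESeq2 called 1 gene on all 12 mice (0.896% of all genes higher) and 2 on the 8 mice (0.573%). In CLP+DCA versus CLP DESeq2 without CLP+DCA mouse 3 called 11 (5.41% of all genes lower) and voom 10 (5.11%), all lower. With library size alone the median of the ATF4 arm in CLP versus sham was 0.11 (0.23 to 0.40 with each mouse left out), Pdia5 had -0.058 and Canx -0.12, and Canx had 0.062 in CLP+DCA versus CLP; this scaling moved the median of all genes to -0.15 in CLP versus sham.

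Several log2 fold changes in CLP+DCA versus sham were positive with all mice and negative without CLP+DCA mouse 3. With each mouse left out in turn they ranged from -0.16 to 0.35 for Hsp90b1, -0.20 to 0.16 for Pdia3, -0.31 to 0.16 for Pdia6, -0.16 to 0.67 for Sdf2l1, -0.066 to 0.29 for Dnajc3, -0.23 to 0.19 for Atf4 and -0.012 to 0.74 for Ppp1r15a, with the lowest value always without that mouse, as for Trib3 in CLP+DCA versus CLP (-0.16 to 0.48). By DESeq2 without that mouse they were -0.17 for Hsp90b1, -0.20 for Pdia3, -0.31 for Pdia6, -0.10 for Calr, -0.16 for Sdf2l1, -0.070 for Dnajc3, -0.24 for Atf4 and -0.017 for Ppp1r15a, and -0.16 for Trib3 in CLP+DCA versus CLP. By voom, which gave that mouse a weight of 0.125, they were -0.21 for Hsp90b1, -0.26 for Pdia3, -0.029 for Pdia4, -0.36 for Pdia6, -0.14 for Calr, -0.32 for Sdf2l1, -0.034 for Dnajb11, -0.088 for Dnajc3, -0.071 for Trib3 and -0.092 for Xbp1, and -0.22 for Trib3 in CLP+DCA versus CLP.

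Mice of the same number did not pair across groups: 1 of 12 same-number correlations of deviations from the group means was over 0.1, with a range of -0.459 to 0.550, and 1 mouse was closest to its own number in both other groups. With the replicate number as a block, 0 of the 33 genes passed in all 3 comparisons, and 36 genes in all were called higher and 10 lower in CLP versus sham, against 216 and 151 without it. With the replicate block the medians of chaperones, ERAD genes and the ATF4 arm were 0.79, 0.59 and 0.31 in CLP versus sham, 0.27, 0.24 and 0.40 in CLP+DCA versus sham, and -0.45, -0.18 and 0.03 in CLP+DCA versus CLP.

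Groups of 4 mice, 1 atypical CLP+DCA liver and a CLP mouse near sham limit the calls. Protein, phosphorylation, Xbp1 splicing and translation of Atf4 were not measured. Asns, Chac1, Ddit3, Trib3 and Ppp1r15a had lower counts than the chaperones. Their edgeR standard errors in CLP versus sham ran from 0.23 (Ddit3) to 0.78 (Asns). Those of the chaperones ran from 0.10 (Canx) to 0.55 (Creld2), so the ranges overlapped.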

Other observations

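Sums of marker lists of other liver cells are given here, and differences between groups in these sums were not tested. Kupffer cell markers (10 genes, all at 1 CPM or more) summed to 193.5 to 320.0 CPM in sham, 298.7 to 386.0 in CLP, and 482.1, 474.4, 252.5 and 247.1 CPM in CLP+DCA mice 1 to 4. The sham and CLP ranges overlapped. In CLP versus sham 9 Kupffer markers had positive fitted values and 1, Clec4f, a negative value. Only Marco was higher at an unadjusted p under 0.05 by edgeR (15.5% of all genes), with means of 9.91 CPM in sham and 58.6 in CLP. Lymphocyte markers (10 genes, none at 1 CPM or more) summed to 2.45 to 5.16 CPM in sham, 0.622 to 2.01 in CLP and 0.921 to 2.91 in CLP+DCA. Stellate cell and cholangiocyte markers summed to 105.0 to 151.6 CPM in sham, 189.5 to 291.9 in CLP and 124.2 to 430.5 in CLP+DCA, highest in CLP+DCA mouse 3. Endothelial markers summed to 138.0 to 185.3 CPM in sham, 170.9 to 219.4 in CLP and 136.9 to 198.2 in CLP+DCA, and these ranges overlapped. Of the 9 endothelial markers, 7 had positive and 2 negative fitted values in CLP versus sham. Neutrophil markers were at 54.6 CPM in CLP+DCA mouse 3, above every CLP mouse, and at 6.20 to 13.6 CPM in the other CLP+DCA mice. Acinar markers summed to 5.50 to 10.3 CPM in CLP+DCA.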
